A study of Homo sapiens with 9 samples.

Results

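Mitosis and spindle genes are described here in HCT116 cells, an established human colon cancer line, as a set of 45 genes listed by symbol for their known roles in cell division. They comprise 10 entry kinases, cyclins and their regulators, 5 spindle checkpoint genes, 4 genes of anaphase and mitotic exit, 8 kinetochore genes, 6 kinesins, 4 genes of the chromosomal passenger complex and 8 genes of spindle assembly, cytokinesis and chromosome structure. The list was matched to the deposited table by gene identifier. All 45 were present and all 45 passed the filter on low values (a CPM, meaning reads scaled to a common library total, of at least 1 in no fewer than 3 of 9 libraries), among 13893 genes tested of 15354 in the table.

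The study sequenced poly(A) RNA from HCT116 cells transfected by RNAiMAX with small interfering RNAs (siRNAs) at 25 nM, to learn which transcripts change when the long non-coding RNA SNHG5 is knocked down. Of the 9 libraries, 3 came from cells given a commercial non-targeting control siRNA, 3 from cells given siRNA A against SNHG5 and 3 from cells given siRNA B against SNHG5. All groups share the parental line, the transfection reagent and the siRNA concentration, and the labels give no time after transfection. How siRNA A and siRNA B correspond to the siRNA names used elsewhere in the study is not stated.

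Entry into mitosis is driven by cyclin B bound to the kinase CDK1, which CDC25 phosphatases switch on and which PLK1 and Aurora kinases reinforce. The checkpoint proteins hold the anaphase-promoting complex inactive until each kinetochore is attached to microtubules. CDC20 then activates that complex, securin is destroyed, and separase cuts the cohesin that joins sister chromatids. Transcripts of these genes accumulate in late S phase, G2 and mitosis, largely through the transcription factors FOXM1 and B-MYB and the MuvB core, and they are abundant in dividing cells and low in resting ones. A bulk library therefore carries both the share of cells in those phases and the RNA of each such cell, and a difference in one cannot be told apart from a difference in the other here.

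The libraries held 15566530 to 23277549 reads. Levels are given as CPM scaled between libraries by the trimmed mean of M values (TMM), and differences as log2(scaled CPM + 1), tested with limma across all genes with Benjamini-Hochberg adjustment at 0.05. Group means of the TMM factors were 1.14 (control), 0.886 (siRNA A) and 0.988 (siRNA B). With library totals alone the median log2 difference of all tested genes moved from −0.02 to −0.34 for siRNA A and from 0.0043 to −0.18 for siRNA B, so every direction below is relative to the TMM scale unless totals are named. The paper reports lower SNHG5 with both of its siRNAs by qRT–PCR, a measure unlike the gene-level reads counted here. In these reads SNHG5 itself went against the labels. It averaged 26.5 ± 4.66 scaled CPM in control, 65.9 ± 6.45 under siRNA A and 47.5 ± 2.40 for the other siRNA (± is the SD of 3 libraries throughout), and it was higher in all 6 libraries labelled as knock-downs (adjusted p of 1.86e-05 and 5.90e-04 by limma). The groups are therefore named by their labels only, and libraries by their replicate number within the group. Epithelial markers were present, with EPCAM at 94.6 to 214 CPM and KRT8 at 884 to 1601 CPM, while KRT20 stayed at 0.043 to 0.82 CPM and CDX1 and LGALS4 had no row. Of the markers of other cell types, COL1A1 lay at 8.55 to 19.5 CPM, COL3A1 and LYZ at 0.145 CPM or less, and 7 had no row.

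Mitosis and spindle genes were expressed well above the typical gene. Their median control level was 117 scaled CPM against 21.8 for all tested genes, with control means from 18.8 for CDC25C to 497 for CENPF, and the smallest count behind any value was 138 reads (CENPA). Per kilobase of exon, the highest control levels were those of the spindle assembly factor TPX2 (118 scaled CPM per kilobase), the anaphase activator CDC20 (104) and cyclin B1 (CCNB1, 89.7). The lowest were those of CDC25C (5.65), the separase gene ESPL1 (8.52) and CENPA (9.80). Of the 45 genes, 26 overlap the span of another annotated gene, among them CCNB1, CCNB2, PLK1, NEK2, FOXM1, NUF2, SPC25, KIF18A and TOP2A. The use of strand in the counting is not stated, so reads of genes overlapped on the other strand may include their neighbours'. NEK2 and TOP2A are overlapped only on their own strand. The transcripts had a median GC content of 44.3%, below the 48.1% of all tested genes.

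Promoters of cell cycle genes often hold CCAAT boxes, bound by NF-Y, and a cell cycle genes homology region (CHR), bound by the MuvB core. RefSeq promoters (GRCh38.p14, 250 bases before to 50 bases after the start) were found for 38 of the 45 genes, and not for TPX2, TTK, AURKA, UBE2C, BIRC5, FOXM1 and BUB3. The CHR letters TTTGAA were searched on both strands and lay in 26 of 38 promoters (68.4%), against 9.53% of the 10226 tested genes with a promoter and 15.4% of all 27305 promoters. CCAAT on either strand lay in 30 of 38 (78.9%), against 36.6% and 35.7%, and both motifs in 22 of 38 (57.9%), against 4.06% and 6.08%. In 16 genes TTTGAA began within 40 bases before the start, against 1.13% of the tested genes. The letters did not separate the genes by their response, since TTTGAA lay in 12 of 17 promoters of genes lower with siRNA A and in 14 of 21 of those not called. A match is a description of letters and shows no binding.

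The 9 windows of 100 bases before the start that follow are chosen examples from genes with 1 listed start. Not shown are SPC24, KIF20A and KIF2C, which fell with siRNA A, had 1 listed start and held no TTTGAA in their promoters. The windows therefore cannot show how the letters go with the response, and only the counts above compare them. CCNB2, ESPL1, KIF18A, CENPA and INCENP fell with siRNA A, PLK1 and PRC1 did not pass the test there, and NEK2 and TOP2A went in opposite directions with the 2 siRNAs. Each is written 5′ to 3′ on the strand of its gene, and capitals mark the CHR letters and the CCAAT letters on either strand.
CCNB2, chr15:59105046-59105145, plus strand: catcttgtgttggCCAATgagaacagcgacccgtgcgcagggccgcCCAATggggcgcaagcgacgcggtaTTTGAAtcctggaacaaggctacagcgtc
ESPL1, chr12:53268199-53268298, plus strand: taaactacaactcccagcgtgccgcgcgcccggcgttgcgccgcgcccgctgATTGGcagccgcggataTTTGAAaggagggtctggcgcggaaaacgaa
KIF18A, chr11:28108157-28108256, minus strand: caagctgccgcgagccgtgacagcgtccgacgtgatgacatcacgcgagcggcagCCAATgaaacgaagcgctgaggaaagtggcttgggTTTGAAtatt
CENPA, chr2:26785956-26786055, plus strand: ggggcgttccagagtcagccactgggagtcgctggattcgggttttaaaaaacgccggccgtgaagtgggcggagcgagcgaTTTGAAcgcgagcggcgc
INCENP, chr11:62123911-62124010, plus strand: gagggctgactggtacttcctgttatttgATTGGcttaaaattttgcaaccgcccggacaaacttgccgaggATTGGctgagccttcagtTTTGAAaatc
PLK1, chr16:23678789-23678888, plus strand: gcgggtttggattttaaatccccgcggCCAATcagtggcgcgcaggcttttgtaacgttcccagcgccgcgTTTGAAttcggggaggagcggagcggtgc
PRC1, chr15:90994536-90994635, minus strand: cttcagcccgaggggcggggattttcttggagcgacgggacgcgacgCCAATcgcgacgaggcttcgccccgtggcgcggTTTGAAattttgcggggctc
NEK2, chr1:211675622-211675721, minus strand: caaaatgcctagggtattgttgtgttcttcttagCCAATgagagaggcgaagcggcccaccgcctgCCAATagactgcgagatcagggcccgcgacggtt
TOP2A, chr17:40417897-40417996, minus strand: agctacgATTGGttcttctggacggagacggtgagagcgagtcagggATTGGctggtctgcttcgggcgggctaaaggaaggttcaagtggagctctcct

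The CHR letters stand close to the start in PLK1 and PRC1 just as in CCNB2 and ESPL1. NEK2 had none in its 300 bases and TOP2A had its matches farther upstream than the window shown, while both carried CCAAT letters within it.

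With siRNA A, 20 of the 45 mitosis and spindle genes were lower than control and 2 were higher. Among all tested genes 27.6% were called lower and 23.9% higher. The genes that fell were CCNB2, AURKA, NEK2, CDC25C, FOXM1, ESPL1, CENPA, NDC80, SPC24, SPC25, ZWINT, KIF20A, KIF23, KIF2C, KIF18A, BIRC5, INCENP, NUSAP1, DLGAP5 and TOP2A, and those that rose were BUB3 and UBE2C. Their median log2 difference over all 45 was −0.21, against −0.02 for all tested genes, and it ran from −0.97 (SPC25) to 0.41 (BUB3). Among the 7418 genes whose control mean was at least that of the lowest member, 24.4% were called lower and 32.3% higher. Of the 22 calls, 13 held under each of 18 other settings, all of them lower: CCNB2, CDC25C, ESPL1, CENPA, SPC24, SPC25, ZWINT, KIF20A, KIF2C, KIF18A, BIRC5, INCENP and DLGAP5. With library totals alone 32 were lower and none higher, against 47.0% and 9.05% of all tested genes on that scale. Of the higher calls, 1 was absent without control library 2 or 3, siRNA A library 1 or 2 or siRNA B library 1.

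With siRNA B, 6 genes were lower and 6 were higher, against 18.3% and 15.6% of all tested genes. PLK1, CENPA, SPC24, ZWINT, BIRC5 and INCENP fell, and NEK2, BUB3, UBE2C, NUF2, PRC1 and TOP2A rose. The median log2 difference was 0.06 (all tested genes 0.0043), with BIRC5 at −1.31 and NUF2 at 0.73 as its ends. Only CENPA, NUF2, BIRC5 and INCENP were called under each of the 18 other settings. The even split depended on the scale, the tool and single libraries. Library totals alone gave 10 lower and 1 higher, against 29.7% and 6.90% of all tested genes on that scale. DESeq2 on recovered reads gave 6 lower and 11 higher, against 18.5% and 17.8%. The higher calls numbered 1 without control library 2 (10.3% of all tested genes) and 2 without siRNA B library 1 or 3 (10.9% and 12.7%). They numbered 11 without siRNA B library 2 (14.5%), and the lower calls numbered 3 without control library 3 (14.4%).

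**Figure D1:**
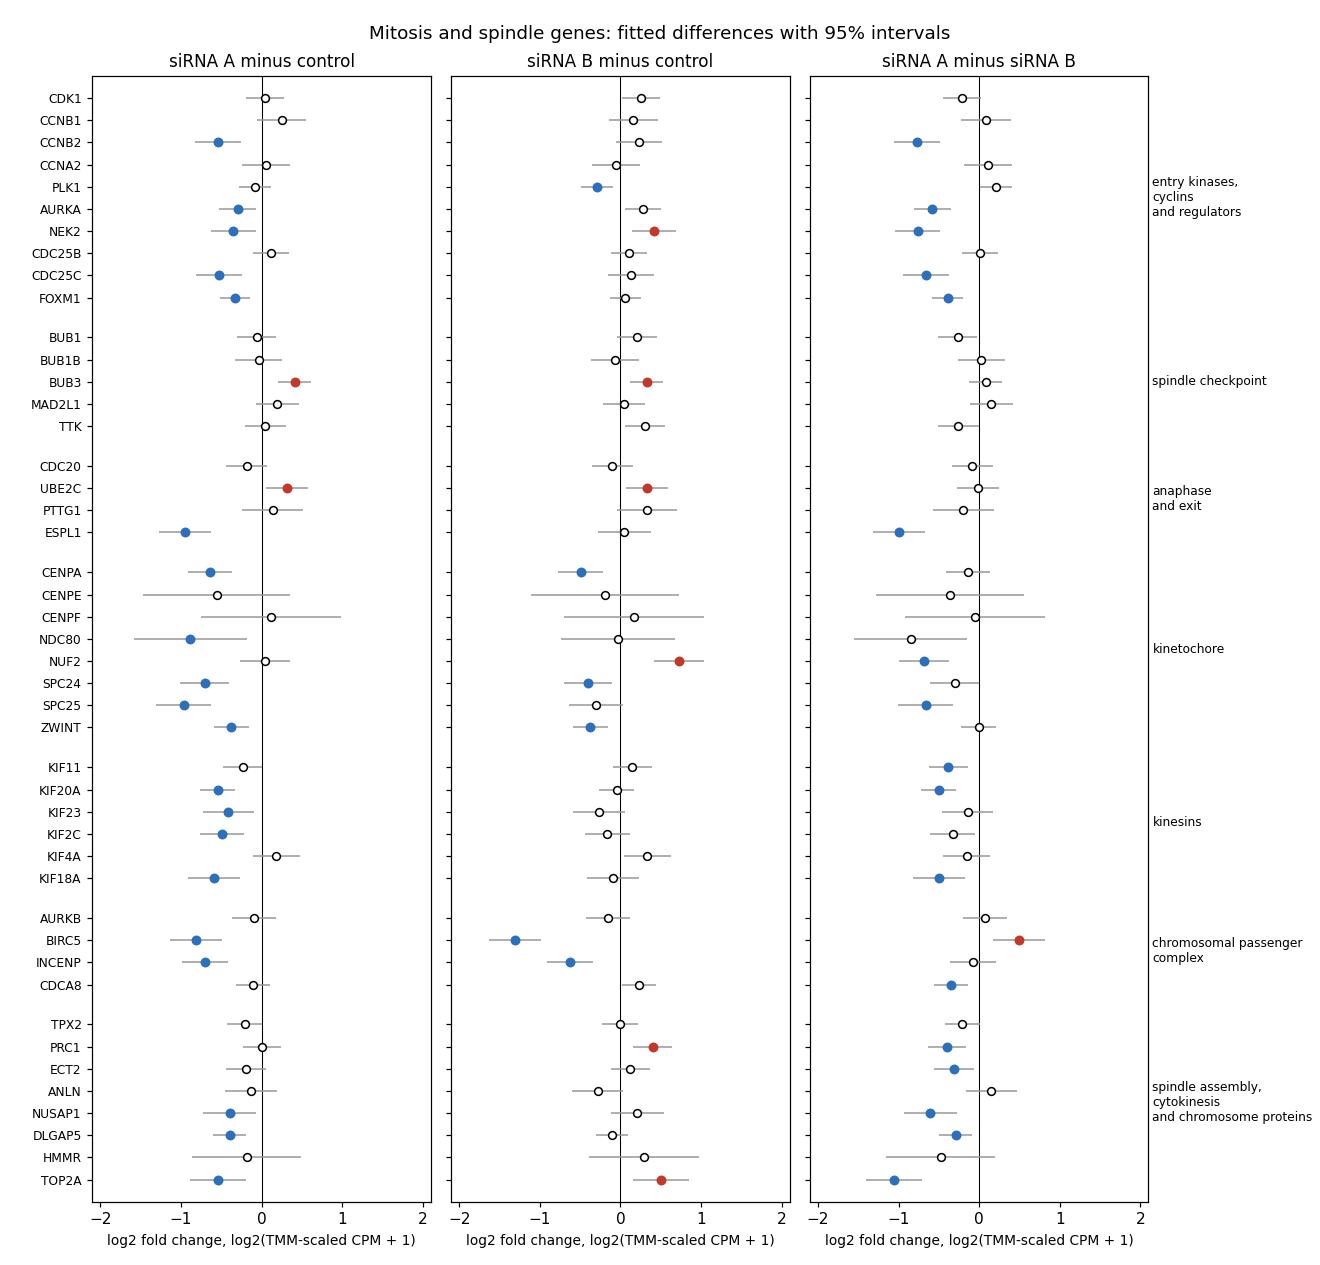
Fitted log2 differences of the 45 mitosis and spindle genes (x axis, log2 of scaled CPM + 1) with 95% intervals, ordered by role, for siRNA A minus control, siRNA B minus control and siRNA A minus siRNA B. Filled blue circles are called lower and filled red circles called higher by limma at an adjusted p of 0.05, open circles are not called, and the blue circles number 20, 6 and 17 from left to right.

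The 2 comparisons with control share the control libraries, so the members' calls are set side by side. Lower with both were 5 genes, CENPA, SPC24, ZWINT, BIRC5 and INCENP, where 11.7% of all tested genes were lower with both. BUB3 and UBE2C were higher with both (10.2% of all tested genes), and NEK2 and TOP2A were lower with siRNA A and higher with siRNA B (1.77%). A further 20 genes were called with neither by limma on the TMM scale with all 9 libraries. Among them were CDK1, CCNB1, CCNA2, AURKB, CDC20, TPX2 and BUB1B.

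Compared directly, siRNA A lay below siRNA B in 17 genes and above it in BIRC5 alone, against 19.5% lower and 17.6% higher among all tested genes. The 17 were CCNB2, AURKA, NEK2, CDC25C, FOXM1, ESPL1, NUF2, SPC25, KIF11, KIF20A, KIF18A, CDCA8, PRC1, ECT2, NUSAP1, DLGAP5 and TOP2A. The median log2 difference was −0.27 (all tested genes −0.01), from −1.05 for TOP2A to 0.50 for BIRC5. The calls of CCNB2, AURKA, NEK2, CDC25C, FOXM1, ESPL1, NUF2, SPC25, KIF20A, NUSAP1 and TOP2A were kept under each of the 18 other settings. The call of BIRC5 failed on the scale of library totals (0.34, adjusted p of 0.122 by limma) and without siRNA A library 1, siRNA A library 3 or siRNA B library 2 (0.32 to 0.46, adjusted p from 0.0551 to 0.0720).

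**Figure D2:**
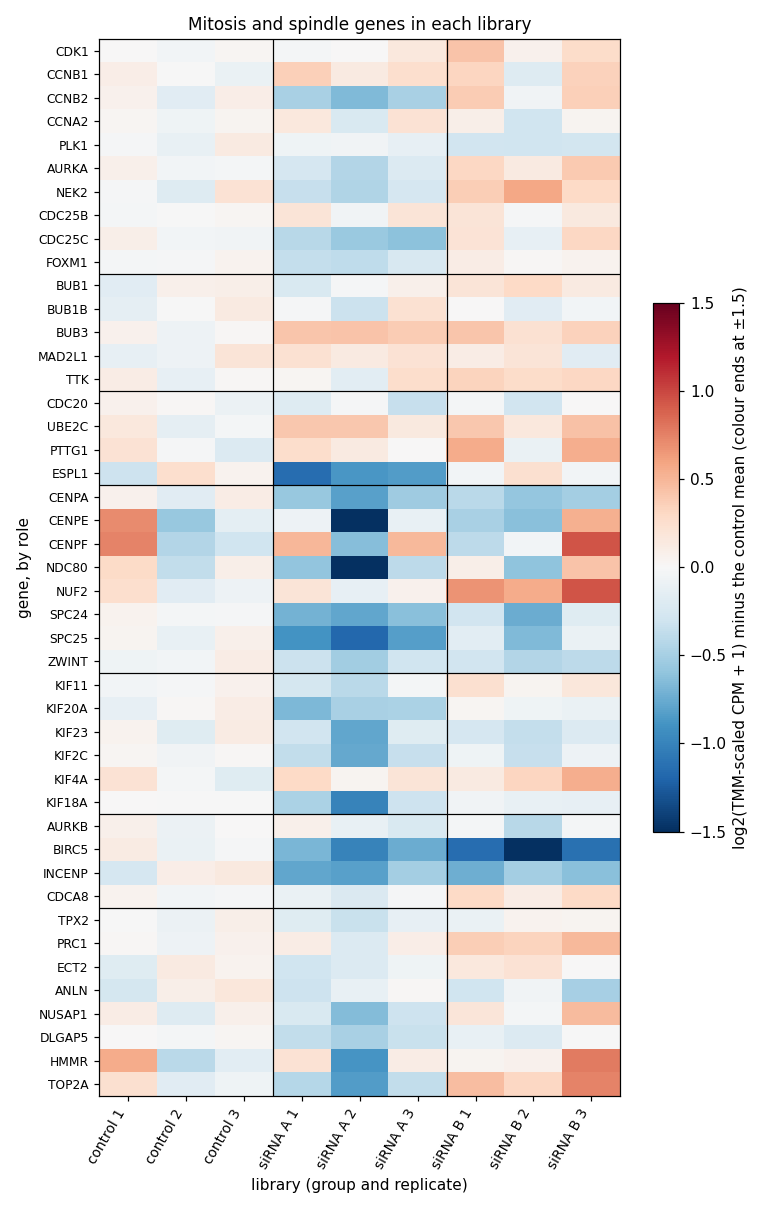
Each of the 45 genes (rows, grouped by role) in each of the 9 libraries (columns), coloured by log2(scaled CPM + 1) minus the mean of the control libraries, with colours ending at ±1.5. Blue columns dominate under siRNA A, BIRC5 is blue in all 6 siRNA libraries, and NEK2 and TOP2A are blue with siRNA A and red with siRNA B.

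Of the entry kinases, cyclins and regulators, 5 of 10 fell with siRNA A and none rose, while siRNA B raised NEK2 and lowered PLK1. Among all tested genes 27.6% were called lower and 23.9% higher with siRNA A, and 18.3% lower and 15.6% higher with siRNA B. Counts by role, here and below, rest on few genes and were not tested against these shares. Groups of libraries without overlap, named below for single genes, were common among all tested genes. All siRNA A libraries lay above all control libraries in 27.6% of them and below in 31.9%. For siRNA B against control these shares were 22.5% and 25.1%, and for siRNA A against siRNA B 22.6% and 25%. Cyclin B2 (CCNB2, chromosome 15, 59397325 to 59417244, GRCh37), a partner of CDK1, read 79.2, 67.0 and 80.8 scaled CPM in control, 53.8, 47.2 and 53.6 under siRNA A, and 98.2, 72.9 and 96.6 under siRNA B. Its siRNA A libraries all lay below the control libraries, and those of siRNA B overlapped them. The log2 differences were −0.54 (standard error 0.13, adjusted p of 0.00454 by limma) for siRNA A and 0.23 (standard error 0.13, adjusted p of 0.200 by limma) for siRNA B. The other cyclins and their kinase did not pass the test in limma on the TMM scale with all 9 libraries. DESeq2 on recovered reads called CDK1 higher with siRNA B. Without siRNA B library 2, limma called CDK1 (0.36, adjusted p = 0.0215), CCNB1 (0.34, adjusted p = 0.0344) and CCNB2 (0.37, adjusted p = 0.0313) higher with siRNA B. CCNB1 was then also called higher with siRNA A (0.25, adjusted p = 0.0474). CDK1 stood at 127, 122 and 129 scaled CPM in control, 123, 127 and 141 under siRNA A, and 170.1, 132 and 153 under siRNA B. All siRNA B libraries of CDK1 were above the control ones, and those of siRNA A overlapped them. The 95% intervals of its log2 differences ran from −0.19 to 0.28 for siRNA A and from 0.02 to 0.49 for siRNA B (adjusted p of 0.753 and 0.0858 by limma), and with library totals alone the siRNA A value was −0.32. Cyclin B1 (CCNB1) read 234, 217 and 203 in control, 279, 239 and 260.0 under siRNA A, and 274, 191 and 277 under siRNA B, in scaled CPM. Its siRNA A libraries were all above control, but the log2 difference of 0.25 (SE 0.14) did not pass the test (adjusted p of 0.162 by limma). Cyclin A2 (CCNA2) differed by 0.05 and −0.06 (intervals −0.25 to 0.35 and −0.36 to 0.24).

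NEK2, a kinase that promotes centrosome separation, lies on chromosome 1 from 211831999 to 211848972. It read 37.6, 33.3 and 44.6 scaled CPM in control, 29.9, 27.7 and 32.0 under siRNA A, and 49.9, 57.5 and 47.1 under siRNA B. The 3 groups did not overlap, with siRNA A lowest and siRNA B highest. The log2 differences were −0.35 (standard error 0.13, adjusted p of 0.0351 by limma) for siRNA A and 0.41 (standard error 0.13, adjusted p of 0.0245 by limma) for siRNA B, and siRNA A lay 0.76 below siRNA B (adjusted p = 7.91e-04). The call against control was lost for siRNA A without control library 1 or 3, siRNA A library 1 or 2 or siRNA B library 1 (−0.36 to −0.24, adjusted p from 0.0518 to 0.156). For siRNA B it was lost without control library 1 or 2 or siRNA B library 1 or 2 (0.30 to 0.43, adjusted p from 0.0610 to 0.122) and with library totals alone (0.21, adjusted p = 0.228).

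PLK1, the Polo-like kinase, stood at 197, 184 and 218 scaled CPM in control, 191, 192 and 183 under siRNA A, and 163, 162 and 165 under siRNA B. Its siRNA B libraries were below the lowest control library, and those of siRNA A overlapped control. It fell by 0.29 under siRNA B on the log2 scale (standard error 0.09, adjusted p of 0.0305 by limma). That call did not hold without control library 1 or 3 or any of the siRNA B libraries (−0.30 to −0.22, adjusted p from 0.0545 to 0.129) and after GC correction (−0.16, adjusted p = 0.199). FOXM1, a transcription factor of G2 and mitosis genes, read 178, 179 and 188 scaled CPM in control, 141, 139 and 153 under siRNA A, and 197, 184 and 188 under siRNA B. The siRNA A libraries were all below control and those of siRNA B overlapped it. FOXM1 fell by 0.33 under siRNA A (standard error 0.09, adjusted p of 0.00806 by limma), a call lost after GC correction (−0.17, adjusted p = 0.130), and differed by 0.06 under siRNA B (interval −0.13 to 0.25). CDC25C, a phosphatase that activates CDK1, fell from a mean of 18.8 ± 1.13 to 12.7 ± 0.950 scaled CPM with siRNA A, or −0.53 on the log2 scale (standard error 0.13, adjusted p of 0.00511 by limma). Its relative CDC25B differed by 0.12 (interval −0.11 to 0.34). Aurora A (AURKA) fell by 0.30 under siRNA A (adjusted p of 0.0310 by limma) and stood at 0.28 under siRNA B (adjusted p = 0.0566). The AURKA call with siRNA A did not hold without control library 1 or 3 or siRNA A library 1 or 2 (−0.32 to −0.23, adjusted p from 0.0529 to 0.108). Its siRNA B libraries all lay above control. Under 6 of the 18 other settings AURKA was called higher with siRNA B (0.27 to 0.35, adjusted p from 0.0209 to 0.0442 by limma or DESeq2).

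Of the 5 spindle checkpoint genes, BUB3 passed the test against control and the other 4 did not. It encodes a subunit of the complex that inhibits CDC20, and it rose with both siRNAs on the TMM scale. BUB3 (chromosome 10, 124913918 to 124929983) read 264, 239 and 255 scaled CPM in control, 337, 340.2 and 328 under siRNA A, and 336, 295 and 320.0 under siRNA B. Every siRNA library was above every control library. The log2 differences were 0.41 (standard error 0.09, adjusted p of 0.00327 by limma) for siRNA A and 0.33 (standard error 0.09, adjusted p of 0.0178 by limma) for siRNA B. With library totals alone they were 0.04 and 0.11, neither called, and the siRNA B call also failed without control library 2 or siRNA B library 1 or 3 (0.27 to 0.32, adjusted p from 0.0535 to 0.0846). BUB1, BUB1B, MAD2L1 and the kinase TTK lay between −0.06 and 0.20 under siRNA A and between −0.07 and 0.31 under siRNA B, and limma on the TMM scale called none of them in the 3 comparisons. DESeq2 on recovered reads called TTK higher with siRNA B (0.31, adjusted p = 0.0354), and BUB1 and TTK were called lower in siRNA A than in siRNA B under 4 and 3 of the 18 other settings.

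Of the 4 genes of anaphase and mitotic exit, ESPL1 fell and UBE2C rose with siRNA A. Separase, the protease encoded by ESPL1 (chromosome 12, 53662083 to 53687422), read 60.2, 89.3 and 77.7 scaled CPM in control, 33.4, 40.5 and 41.3 under siRNA A, and 72.5, 88.1 and 72.6 under siRNA B. The siRNA A libraries were all far below both other groups, which overlapped. ESPL1 changed by −0.95 under siRNA A (standard error 0.15, adjusted p of 3.09e-04 by limma), a ratio of means of 0.507, and by 0.05 under siRNA B (interval −0.27 to 0.37). The direct difference between the siRNAs was −0.999 (standard error 0.15, adjusted p of 4.33e-04 by limma). UBE2C, the ubiquitin-conjugating enzyme of the anaphase-promoting complex, read 121, 98.2 and 106 scaled CPM in control, 143, 144 and 119.7 under siRNA A, and 143, 121 and 147 under siRNA B. A siRNA A library overlapped control, and the siRNA B libraries lay just above it. It rose by 0.32 (adjusted p of 0.0413 by limma) and 0.33 (adjusted p of 0.0479 by limma), but with library totals alone the siRNA A value turned to −0.05 and the siRNA B value was 0.12. Both UBE2C calls did not hold without control library 2, control library 3, siRNA A library 1 or siRNA B library 1, that of siRNA A also without siRNA A library 2 and that of siRNA B also without siRNA B library 3 (0.24 to 0.33, adjusted p from 0.0561 to 0.181). CDC20 differed by −0.19 and −0.10 and securin (PTTG1) by 0.14 and 0.33, none called by limma on the TMM scale with all 9 libraries. Library totals alone called CDC20 lower with siRNA A (−0.55, limma, adjusted p = 0.00222). PTTG1 was called higher with siRNA B when siRNA B library 2 was left out (0.55, limma, adjusted p = 0.00964).

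At the kinetochore, 5 of 8 genes fell with siRNA A and 3 under siRNA B, against 27.6% and 18.3% of all tested genes. NUF2 rose with siRNA B, as did 15.6% of all tested genes. The outer kinetochore complex NDC80, which grips microtubules, consists of the products of NDC80, NUF2, SPC24 and SPC25, and of these 4 genes 3 fell with siRNA A, while with siRNA B SPC24 fell and NUF2 rose. SPC25 (chromosome 2, 169690642 to 169769881) read 35.1, 31.6 and 36.1 scaled CPM in control, 17.9, 14.6 and 18.8 under siRNA A, and 30.6, 21.3 and 31.9 under siRNA B. Its siRNA A libraries lay below all others, and those of siRNA B overlapped control. The log2 difference of −0.97 under siRNA A (standard error 0.15, adjusted p of 3.58e-04 by limma) was the lowest of the 45 genes, and with siRNA B it was −0.30 (standard error 0.15, adjusted p of 0.151 by limma). SPC25 was called lower with siRNA B under 3 of the 18 other settings (−0.51 to −0.30, adjusted p from 0.0125 to 0.0378 by limma). NUF2 (chromosome 1, 163236366 to 163325554) read 46.0, 34.3 and 36.5 scaled CPM in control, 44.2, 35.2 and 40.3 under siRNA A, and 62.2, 57.2 and 75.3 under siRNA B. Here the siRNA A libraries overlapped control, and each siRNA B library was above both groups. NUF2 rose by 0.73 under siRNA B (standard error 0.14, adjusted p of 0.00235 by limma) and differed by 0.04 under siRNA A (interval −0.27 to 0.35). SPC24 fell with siRNA A by 0.70 (adjusted p of 0.00138 by limma) and with siRNA B by 0.40 (adjusted p of 0.0422 by limma), and the siRNA B call did not hold when any 1 of the control libraries, siRNA A library 1 or 3 or siRNA B library 1 or 2 was left out (−0.47 to −0.23, adjusted p from 0.0510 to 0.119). The NDC80 gene itself fell by 0.88 under siRNA A (standard error 0.32, adjusted p of 0.0379 by limma), a call that did not hold without control library 1 or 3, siRNA A library 2 or siRNA B library 1 (−0.88 to −0.49, adjusted p from 0.0501 to 0.154). Its difference between the siRNAs (−0.85, adjusted p of 0.0567 by limma) was called under 6 of the 18 other settings (−1.14 to −0.85, adjusted p from 2.17e-04 to 0.0491 by limma). CENPA, the histone H3 variant that marks centromeres, fell from 19.1 ± 2.01 scaled CPM to 11.9 ± 1.30 under siRNA A and 13.2 ± 0.898 under siRNA B, by 0.64 and 0.50 on the log2 scale (adjusted p of 0.00135 and 0.0101 by limma). ZWINT, which links the outer kinetochore to the checkpoint, fell by 0.38 and 0.37 (adjusted p of 0.00776 and 0.0135 by limma), and its siRNA B call did not hold without control library 3 (−0.32, adjusted p = 0.0620).

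**Figure D3:**
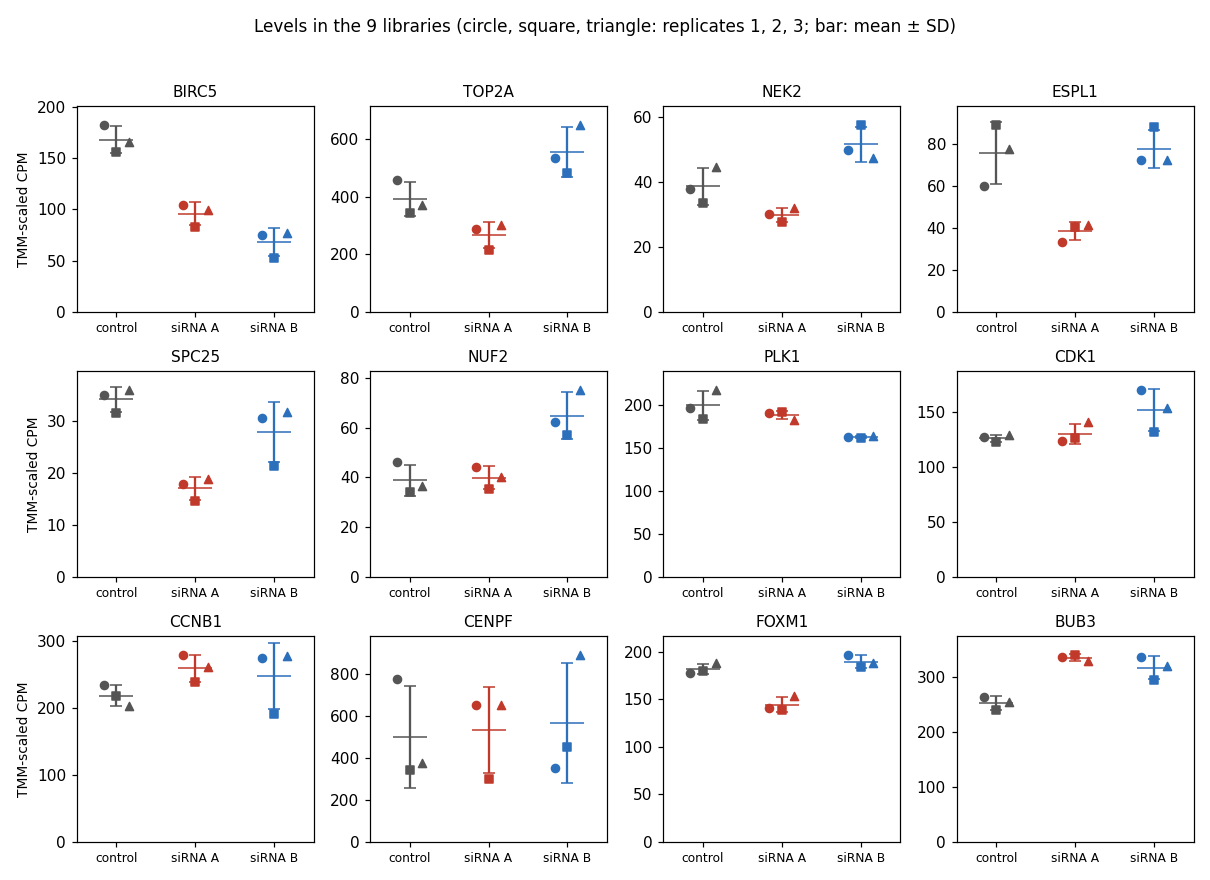
Levels of 12 mitosis and spindle genes in each library (y axis, scaled CPM, from 0), with circle, square and triangle for replicates 1, 2 and 3 and bars for the mean ± SD of 3. BIRC5 steps down from control to siRNA A to siRNA B, ESPL1 and SPC25 are low with siRNA A, NUF2 is high with siRNA B, and the libraries of CENPF spread from 297 to 889 scaled CPM.

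Kinesins fell with siRNA A in 4 of 6 cases (KIF20A, KIF23, KIF2C and KIF18A), against 27.6% of all tested genes. With siRNA B limma on the TMM scale called none. There DESeq2 on recovered reads called KIF4A higher (0.35, adjusted p = 0.0491), and library totals alone KIF23 lower (−0.48, adjusted p = 0.0308). KIF18A (chromosome 11, 28042166 to 28129703), which aligns chromosomes at the metaphase plate, read 76.6, 75.7 and 75.8 scaled CPM in control, 54.6, 37.5 and 61.1 under siRNA A, and 73.1, 70.6 and 69.9 under siRNA B. The siRNA A libraries were the lowest, and the siRNA B libraries were close under the control ones without overlap. KIF18A fell by 0.59 under siRNA A (standard error 0.15, adjusted p of 0.00551 by limma) and differed by −0.09 under siRNA B (interval −0.42 to 0.23). KIF20A, a kinesin of the central spindle, changed by −0.55 under siRNA A (standard error 0.10, adjusted p of 8.80e-04 by limma), and the microtubule depolymerase KIF2C by −0.49 (standard error 0.13, adjusted p of 0.00686 by limma). KIF23, a subunit of centralspindlin, fell by 0.41 (standard error 0.15, adjusted p of 0.0340 by limma), a call that did not hold without control library 1 or 3 or siRNA A library 2 (−0.38 to −0.23, adjusted p from 0.0830 to 0.126). KIF11, which pushes spindle poles apart, was not called against control in the main fit (−0.23 with siRNA A, adjusted p of 0.0970 by limma). Under 4 of the 18 other settings it was called lower with siRNA A (−0.60 to −0.34, adjusted p from 0.00188 to 0.0262 by limma). In the main fit its siRNA A level lay 0.38 below siRNA B (adjusted p of 0.0181 by limma). That difference lost its call without siRNA A library 1 or 2 or siRNA B library 1 or 3 (−0.37 to −0.30, adjusted p from 0.0508 to 0.0788), and the difference of KIF18A between the siRNAs (−0.50) lost its call without siRNA B library 1 (−0.48, adjusted p = 0.0659). The scaled CPM of the 6 kinesins added up to 674 to 726 in control, 468 to 610.2 under siRNA A and 642 to 704 under siRNA B.

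In the chromosomal passenger complex, which corrects faulty attachments and steers cytokinesis, the genes of 2 of the 4 subunits were low with both siRNAs. Among all tested genes 11.7% were called lower with both. Survivin (BIRC5, chromosome 17, 76210267 to 76221717), the subunit that brings the complex to centromeres, read 183, 156 and 166 scaled CPM in control, 104, 83.1 and 99.99 under siRNA A, and 75.4, 52.7 and 76.8 under siRNA B. The 3 groups did not overlap, control being highest and siRNA B lowest. BIRC5 changed by −0.81 under siRNA A (standard error 0.15, adjusted p of 8.14e-04 by limma) and by −1.31 under siRNA B (standard error 0.15, adjusted p of 7.52e-05 by limma), ratios of means of 0.569 and 0.405. INCENP, the scaffold of the complex, averaged 73.3 ± 10.7 scaled CPM in control, 44.6 ± 5.48 under siRNA A and 47.1 ± 3.56 under siRNA B. It fell by 0.70 and 0.62 (adjusted p of 9.11e-04 and 0.00351 by limma), and both calls held under each of the 18 other settings. The kinase subunit AURKB differed by −0.09 and −0.16 (intervals −0.36 to 0.18 and −0.43 to 0.12). Borealin (CDCA8) was called by limma on the TMM scale between the siRNAs and not against control, with siRNA A lower by 0.35 (adjusted p of 0.0146 by limma), a call that did not hold without siRNA A library 2 or siRNA B library 1 or 3 (−0.32 to −0.30, adjusted p from 0.0508 to 0.0648). Against control, CDCA8 was called higher with siRNA B by DESeq2 on recovered reads (0.25, adjusted p = 0.0323) and after GC correction (0.28, adjusted p = 0.0338). The 4 genes summed to 402 to 428 scaled CPM in control, 280 to 319 under siRNA A and 265 to 317 under siRNA B.

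Among spindle assembly, cytokinesis and chromosome genes, 3 of 8 fell with siRNA A and 2 rose with siRNA B, against 27.6% and 15.6% of all tested genes. TOP2A (chromosome 17, 38544777 to 38574148), the topoisomerase that untangles sister chromatids, read 457, 344 and 371 scaled CPM in control, 288, 216 and 300.3 under siRNA A, and 536, 481 and 651 under siRNA B. No siRNA library overlapped control, and the 2 siRNAs lay on opposite sides of it. The log2 differences were −0.55 under siRNA A (standard error 0.16, adjusted p of 0.0132 by limma) and 0.51 under siRNA B (standard error 0.16, adjusted p of 0.0281 by limma), and siRNA A was 1.05 below siRNA B (adjusted p = 4.67e-04). Against control the siRNA A call did not hold without control library 1 or siRNA A library 2 (−0.42 and −0.40, adjusted p = 0.0532 and 0.0555). For siRNA B the call did not hold without control library 2 or 3 or siRNA B library 1 or 3 (0.39 to 0.52, adjusted p from 0.0657 to 0.120), after GC correction (0.39, adjusted p = 0.0726) and on the scale of library totals (0.29, adjusted p = 0.193). PRC1, which bundles the microtubules of the central spindle, rose by 0.40 under siRNA B (standard error 0.11, adjusted p of 0.0146 by limma) and differed by 0.0034 under siRNA A. The PRC1 call with siRNA B was lost without control library 2 or siRNA B library 3 (0.34 and 0.35, adjusted p = 0.0639 and 0.0543) and with library totals alone (0.19, adjusted p = 0.260), where the siRNA A value became −0.36. DLGAP5, a stabiliser of spindle fibres, fell by 0.40 under siRNA A (standard error 0.09, adjusted p of 0.00382 by limma). NUSAP1, a microtubule-binding protein, fell by 0.40 (standard error 0.15, adjusted p of 0.0444 by limma), a call that did not hold without control library 1 or 3, siRNA A library 2 or 3 or siRNA B library 1 (−0.44 to −0.27, adjusted p from 0.0592 to 0.168). TPX2, ECT2, ANLN and HMMR were called with neither siRNA against control by limma on the TMM scale, but after GC correction ECT2 was called lower with siRNA A and ANLN lower with siRNA B.

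Between the siRNAs, the calls of TOP2A and NUSAP1 held when any 1 library was left out, and 3 calls of these genes did not. PRC1 (−0.40) lost its call without siRNA B library 3 (−0.35, adjusted p of 0.0538 by limma). DLGAP5 (−0.29) lost it without siRNA A library 1 or 2 or siRNA B library 1 or 3 (−0.31 to −0.24, adjusted p from 0.0553 to 0.110). ECT2, the activator of RhoA in cytokinesis (−0.31, adjusted p of 0.0466 by limma), lost it without control library 2 or 3, siRNA A library 1 or 2 or siRNA B library 1 or 2 (−0.31 to −0.26, adjusted p from 0.0533 to 0.152).

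Replicates of most mitosis and spindle genes were tight, but those of a few were not. The median within-group SD of the 45 genes was 0.162 on the log2 scale, against 0.172 for all tested genes. CENPF, CENPE, NDC80 and HMMR, chosen here after their values were seen, had larger SDs than 99.0% or more of the tested genes. The kinetochore protein gene CENPF read 775, 339 and 376 scaled CPM in control, 653, 297 and 651 under siRNA A, and 352, 451 and 889 under siRNA B. The kinetochore motor gene CENPE read 328, 135 and 179.7 in control, 189.9, 70.3 and 185 under siRNA A, and 142, 129 and 290.3 under siRNA B, in scaled CPM. In both genes all 3 groups overlapped. The high and low libraries were largely the same ones, with control library 1 and siRNA B library 3 the highest of their groups and siRNA A library 2 the lowest. For CENPE the 95% interval of the siRNA A difference ran from −1.47 to 0.36, and for CENPF from −0.75 to 0.98. Replicate 2 was the lowest of its group in 28 of 45 genes in control, 32 in siRNA A and 32 in siRNA B, against 34.4%, 36.3% and 42.8% of all tested genes, and it was also the shallowest library of each group. The part of depth in that pattern was not tested.

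A wider list of 117 other mitosis genes, none of them among the 45, was tested in the same fit. With siRNA A 33.3% were lower (39 genes) and 15.4% higher (18), against 27.6% and 23.9% of all tested genes. With siRNA B 9.40% were lower (11) and 19.7% higher (23), against 18.3% and 15.6%. In siRNA A against siRNA B 37.6% were lower (44) and 6.84% higher (8), against 19.5% and 17.6%. These differences between lists were not tested. Their median log2 differences were −0.11, 0.08 and −0.23. With library totals alone the counts lower and higher became 64 and 5, 19 and 7, and 53 and 1. On that scale 47.0% and 9.05% of all tested genes were lower and higher with siRNA A. The shares were 29.7% and 6.90% with siRNA B, and 27.0% and 10.2% between the siRNAs. The larger count of this list with siRNA B thus changed sides on a scale that moved all tested genes towards lower. With siRNA A, 15 of 30 spindle, centrosome and cytokinesis genes (50%) were lower and 1 higher, and 1 of 15 cohesin genes (6.67%) was lower and 5 (33.3%) higher.

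**Figure D4:**
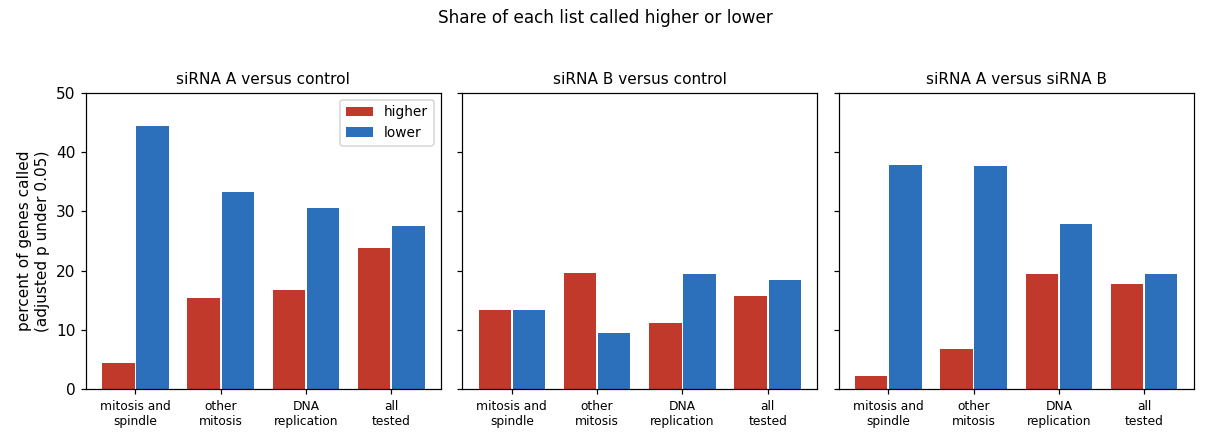
Percent of each list called higher (red) or lower (blue) by limma at an adjusted p of 0.05 (y axis) for the 45 mitosis and spindle genes, 117 other mitosis genes, 36 DNA replication genes and all 13893 tested genes in the 3 comparisons. The mitosis and spindle bars for siRNA A stand at 44.4% lower and 4.44% higher, and those for siRNA B at 13.3% each.

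With siRNA A several genes of the wider list changed more than any of the 45. MYBL2, which encodes B-MYB, averaged 198.7 ± 8.17 scaled CPM in control, 46.9 ± 1.87 under siRNA A and 85.0 ± 17.3 under siRNA B. Its log2 differences were −2.06 (standard error 0.13, adjusted p of 1.96e-06 by limma) and −1.24 (standard error 0.13, adjusted p of 6.07e-05 by limma). LIN52, a subunit of the MuvB core that B-MYB joins, fell by 1.29 under siRNA A (adjusted p of 1.74e-04 by limma) and stood at −0.17 under siRNA B (adjusted p = 0.505). WEE1, the kinase that inhibits CDK1, was named after its values were seen as the gene of this list that rose most with siRNA A. It averaged 68.7 ± 2.25 scaled CPM in control, 157 ± 18.8 under siRNA A and 124 ± 15.4 under siRNA B, and rose by 1.17 and 0.84 (adjusted p of 1.83e-05 and 3.19e-04 by limma). In the anaphase-promoting complex, ANAPC15 fell by 1.92 and 1.06 (adjusted p of 2.51e-05 and 0.00221 by limma), and ANAPC13 rose by 0.85 under siRNA A (adjusted p of 0.00125 by limma) and stood at −0.10 under siRNA B. Each of these calls against control held under the 18 other settings.

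The inner kinetochore genes CENPK and CENPI fell with siRNA A by 1.19 and 1.124 (adjusted p of 0.00174 and 7.38e-05 by limma). With siRNA B, CENPI fell by 0.43 (adjusted p of 0.0341 by limma), a call that did not hold without control library 2 or 3 or siRNA B library 1 or 3, and CENPK stood at −0.36 (adjusted p = 0.279). The kinesin KIFC1 fell by 0.98 and 0.47 (adjusted p of 2.42e-04 and 0.0299 by limma), the siRNA B call being lost after GC correction and without control library 3 or siRNA B library 2. The cytokinesis kinase gene CIT fell by 0.92 under siRNA A (adjusted p of 5.50e-04 by limma) and stood at −0.04 under siRNA B. Condensin II subunit NCAPD3 fell by 0.83 under siRNA A (adjusted p of 7.47e-04 by limma), while the condensin I subunit NCAPD2 rose by 0.73 under siRNA B (adjusted p of 8.90e-04 by limma). Among cohesin genes, the subunit STAG2 rose by 0.51 and 0.87 (adjusted p of 0.00287 and 1.85e-04 by limma), the siRNA A call being lost with library totals alone (0.14), and the loader MAU2 fell by 0.65 under siRNA A (adjusted p of 2.89e-04 by limma).

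Genes of DNA replication, which act in the preceding phase of the cycle, were counted in the same way. Of 36 tested, 30.6% were lower (11) and 16.7% higher (6) with siRNA A, and 19.4% lower (7) and 11.1% higher (4) with siRNA B. In siRNA A against siRNA B 27.8% were lower (10) and 19.4% higher (7). Of all tested genes 27.6% were lower and 23.9% higher with siRNA A, 18.3% and 15.6% with siRNA B, and 19.5% and 17.6% in the direct comparison. With library totals alone none was higher than control with either siRNA, against 9.05% of all tested genes with siRNA A and 6.90% with siRNA B. The transcription factor E2F1 fell furthest, by 1.67 and 1.09 (adjusted p of 2.39e-05 and 7.20e-04 by limma). MCM3, a helicase subunit, rose by 0.45 under siRNA A (adjusted p of 0.00495 by limma), and the clamp loader subunit RFC5 by 0.52 under siRNA B (adjusted p of 0.00175 by limma). Both of these calls were lost with library totals alone (0.08 and 0.31).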

How the data were processed

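RNA-seq libraries of HCT116 cells (3 per siRNA group, labelled as separate replicates) were analysed from a single table of gene-level CPM deposited by the authors. Per the submitters' processing notes the tools include TopHat2 and HTSeq and the builds GRCh37 and hg19. The annotation, the use of strand and any filter are not given in the sources used here. The 45 genes, the comparison lists and the tests were chosen with earlier results of these data known. Values were whole multiples of 1 read in 100% of cases (tolerance 0.01), so reads and library totals were recovered. A level of 3 reads is 0.129 to 0.193 CPM, and counting error only is covered. Identifiers were matched to GENCODE v44 lifted to GRCh37 (14871 matched, 483 not). CPM were TMM-scaled (edgeR 4.0.16), a pseudocount of 1 added, and log2 values of genes reaching 1 CPM in 3 or more libraries fitted with limma 3.58.1 (R 4.3.3), with trended variance, a mean per group over all 9 libraries and Benjamini-Hochberg adjustment over 13893 genes. No test was made over a list. Values of all libraries are given for the most changed called gene of each role with each siRNA, for genes called in opposite directions, and for CDK1, CCNB1, PLK1, TOP2A and FOXM1. For the other lists the rule took the 2 most changed called genes of each role, or the most changed in each direction. Alternatives were library totals alone, median-of-ratios factors, a pseudocount of 0.1, no filter, edgeR and DESeq2 1.42.0 on recovered reads, a replicate block, GC correction, both together, and leaving out each library. Departures from the group mean correlated at 0.646, 0.411 and 0.130 in same-numbered control and siRNA A libraries. Control library 3 correlated about as much with siRNA A library 2 (0.094) as with siRNA A library 3. The main fit and its p-values took no account of these numbers, which entered only in the replicate block. No pair of replicates agreed within sampling noise (chi-square per degree of freedom at least 13.0).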

Additional observations from a re-analysis of the deposited data

Results flagged for a closer look

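NEK2 and TOP2A moved in opposite directions with the 2 siRNAs, each called against control. They were flagged by these opposite calls together with a call in the direct comparison of the siRNAs. The direct p-values are therefore part of the choice and give no separate support. For NEK2 the siRNA A level was 0.76 below the siRNA B level on the log2 scale (−0.76, limma, adjusted p = 7.91e-04), with all 3 siRNA A libraries below and all 3 siRNA B libraries above the control libraries. For TOP2A the difference was −1.05 (limma, adjusted p = 4.67e-04), with the same order of the libraries. Both differences were called under each of the 18 other settings, whereas the calls of each siRNA against control were not. Among all tested genes 1.77% were called in opposite directions. Groups of 3 libraries were too small to test for outlying libraries.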

How the results depend on the processing

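Under the 18 other settings, 2245 of the single-gene differences kept their side of the threshold, 105 were no longer called and 77 became called. Among the 2245 were 118 that changed sign without being called on either side, 28 of them with library totals alone. Another 3 changed sign where the main or the other value was called, all with library totals alone against control with siRNA A: CDK1 to −0.32 (limma, adjusted p = 0.0488), UBE2C to −0.047 (adjusted p = 0.767) and PRC1 to −0.36 (adjusted p = 0.0226). Library totals alone gave 0 higher and 32 lower genes for siRNA A, 1 higher and 10 lower for siRNA B, and 0 higher and 24 lower for siRNA A against siRNA B. On that scale 9.05% of all tested genes were higher and 47.0% lower for siRNA A. The shares were 6.90% and 29.7% for siRNA B, and 10.2% and 27.0% for siRNA A against siRNA B. DESeq2 on recovered reads gave 11 higher genes for siRNA B (17.8% of all tested genes) and 2 higher for siRNA A against siRNA B (19.7%). GC correction, alone or with the replicate block, also gave 2 higher in that direct comparison (19.7% and 23.9% of all tested genes). Leaving out 1 library gave 1 to 3 higher and 14 to 20 lower genes for siRNA A, 1 to 11 higher and 3 to 6 lower for siRNA B, and 0 to 1 higher and 12 to 21 lower for the direct comparison. Of all tested genes these fits called 19.8% to 25.9% higher and 23.2% to 29.4% lower for siRNA A. For siRNA B the shares were 10.3% to 16.5% and 14.4% to 19.0%. For the direct comparison they were 14.2% to 18.3% and 14.7% to 19.1%. The replicate block left siRNA A at 2 higher and 20 lower, with no call of the 45 genes changed. It called 27.5% of all tested genes higher and 30.8% lower there. Numbers did not pair siRNA B with control (0.173, 0.445 and −0.386) or siRNA A with siRNA B (0.204, 0.442 and 0.019). Across numbers, siRNA B library 3 correlated with control library 1 (0.679) and with siRNA A library 1 (0.594), libraries that the block by number does not join to it. The block gave 8 higher and 7 lower for siRNA B, against 19.9% and 21.8% of all tested genes. For siRNA A against siRNA B it gave 1 higher and 20 lower, against 21.5% and 23.3%. With GC correction the block gave 3 higher and 22 lower for siRNA A, against 29.6% and 28.7% of all tested genes. For siRNA B it then gave 9 higher and 9 lower, against 21.4% and 21.2%. The cause of these shifts was not tested. Some calls close to the threshold were also lost by other settings, with adjusted p from 0.0501 to 0.0938: NDC80, NEK2 and NUSAP1 for siRNA A, BUB3, SPC24 and UBE2C for siRNA B, and ECT2 between the siRNAs. Each value rested on at least 138 reads.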
